A study of Mus musculus with 225 samples.

Results

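The inhibitors of DNA binding *Id1*, *Id2*, *Id3* and *Id4* were followed in single cells of the developing mouse forelimb. The 4 genes were taken by name, and each was found as 1 of the 23165 gene rows of the raw counts and as 1 of the 10948 gene rows of the normalized table. Cells came from the autopod, the future hand, and the zeugopod, the future forearm, of embryos at E12.5 (embryonic day 12.5), with no treatment. Embryos of both tissues were Hoxd11::GFP heterozygous on a mixed C57Bl6CBAF1 background. In all of them 1 *Hoxd11* allele was, by the study's methods, inactivated by a tau-GFP cassette inserted in frame. The sort kept the 20% of cells with the brightest GFP. Both tissues are therefore a selection of cells by the reporter of a *Hoxd* gene, and they lack wild-type and GFP-negative counterparts. Limbs were dissociated with collagenase, and cells were captured on Fluidigm C1 chips, where each cell gives its own library of polyA RNA. Of 225 captured cells, the quality filter of the authors left out 26. It kept 76 of 96 autopod cells, 59 of them in sequencing run NXT0072 and 17 in run NXT0143. It also kept 58 of 60 zeugopod cells in run NXT0142 and 65 of 69 in NXT0143. The labels speak of 8 pooled embryos and the methods of 8 limbs from 4 littermates, and the labels give no embryo for a cell. Each tissue was therefore treated as 1 pooled sample, cells were not used as replicates, and no value here carries a p-value or a standard error.

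A retained autopod cell had 187344 to 9437447 reads on genes (median 2830025), a zeugopod cell 186271 to 6801278 (median 3233736), and a median of 3684 and 3995 genes had at least 1 read. No 2 of the retained cells had identical counts. The tissue labels were checked against known markers: at least 5 reads of *Hoxd13*, the most posterior *Hoxd* gene, were found in 65 autopod cells and 1 zeugopod cell, whereas *Shox2*, a gene of the proximal limb, was found in 73 zeugopod cells and no autopod cell. A count of 0 of 76 allows up to 3.95% of cells. *Prrx1*, a marker of limb mesenchyme, reached 5 reads in 47 autopod and 86 zeugopod cells. It was 1 of 5 limb mesenchyme genes listed, which did not share a direction between the tissues. By mean log2(value + 1), 2 of the 5 were higher in the autopod by at least 2, and 2 were lower (range -2.70 to 2.44). Of all genes tested, as defined below, 0.796% were higher and 2.69% lower by that much. No retained cell met the marker rule for muscle, epithelium, endothelium or macrophages, and *Myod1*, *Myog*, *Myf5*, *Krt5*, *Cdh5*, *Emcn* and *Aif1* reached 5 reads in 0 cells. The summed level of the 4 endothelial genes did not pass 19.2 CPM (the count scaled to the total of reads on genes in the cell) in any cell, that of the 5 muscle genes 98.3 CPM and that of the 5 epithelial genes 1741 CPM. Of the 4 blood genes, 1 was a row of the counts used here, so that the rule for blood could not be met.

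Id proteins have a helix-loop-helix domain with which they bind other proteins, but they lack the basic stretch that contacts DNA. By pairing with the E proteins encoded by *Tcf3*, *Tcf4* and *Tcf12* they keep these, and the tissue-restricted basic helix-loop-helix (bHLH) factors that need E proteins as partners, away from their E-box sites (CANNTG). *Id1*, *Id2* and *Id3* are well known direct targets of the bone morphogenetic protein (BMP) pathway, in which ligand-bound receptors phosphorylate Smad1, Smad5 and Smad9 and these enter the nucleus with Smad4. They are also known as genes that respond early to serum. In the limb, BMP signals act in the interdigital mesenchyme and in the cartilage condensations.

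In GRCm38, as annotated by GENCODE, *Id1* lies on chromosome 2 (chr2:152736251-152737410, plus strand), *Id2* on chromosome 12 (chr12:25093799-25097140, minus strand), *Id3* on chromosome 4 (chr4:136143497-136145755, plus strand) and *Id4* on chromosome 13 (chr13:48261228-48266026, plus strand). Since the 4 proteins share a domain, the stretches in which their coding sequences are most alike were compared, to see whether a read could be assigned to the wrong gene. The windows shown are 120 bases of coding sequence from the GENCODE transcripts, each inside 1 exon, aligned without gaps, with capitals for the 69 bases (57.5%) identical in all 4 genes. Positions are chr2:152736518-152736637 for *Id1*, chr12:25095783-25095902 for *Id2*, chr4:136144002-136144121 for *Id3* and chr13:48261693-48261812 for *Id4*.
Id1: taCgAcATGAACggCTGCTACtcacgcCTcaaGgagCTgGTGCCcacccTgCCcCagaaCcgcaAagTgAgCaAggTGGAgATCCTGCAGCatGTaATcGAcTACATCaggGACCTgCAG
Id2: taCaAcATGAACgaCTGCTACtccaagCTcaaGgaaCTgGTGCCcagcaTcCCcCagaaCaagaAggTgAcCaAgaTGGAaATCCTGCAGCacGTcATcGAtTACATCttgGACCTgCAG
Id3: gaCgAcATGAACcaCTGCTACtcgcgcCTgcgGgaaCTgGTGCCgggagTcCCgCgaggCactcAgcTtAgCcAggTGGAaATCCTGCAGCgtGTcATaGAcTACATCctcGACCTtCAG
Id4: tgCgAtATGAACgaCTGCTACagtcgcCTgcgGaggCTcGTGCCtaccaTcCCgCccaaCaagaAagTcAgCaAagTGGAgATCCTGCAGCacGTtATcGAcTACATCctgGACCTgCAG
Within this window *Id1* and *Id2* were the most alike pair (81.7% of bases identical), and *Id1* with *Id3*, and *Id3* with *Id4*, the least alike (70.8% each). Over whole transcripts, the longest run of bases shared by any pair was 19 (*Id2* and *Id3*), which is shorter than the 75-base reads that the authors mapped uniquely. For *Id4* the counting is not stated to use strand, and the antisense gene *A330033J07Rik* overlaps it. That gene had reads in 8 retained cells, with at most 240 in a cell, so that reads of this pair of genes cannot be told apart where they overlap.

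Promoters were read from RefSeq (GRCm38.p6, 250 bases before to 50 bases after the start site), because the members are known for responding to the same pathway. The table held 3 of the 4 genes, and *Id1* had no entry. Capitals mark GTCTG on either strand, the core of a Smad-binding element, and GGCGCC, a GC-rich Smad-binding sequence. The windows are chr12:25096043-25096342 (minus strand) for *Id2*, chr4:136143572-136143871 (plus strand) for *Id3* and chr13:48260866-48261165 (plus strand) for *Id4*.
Id2: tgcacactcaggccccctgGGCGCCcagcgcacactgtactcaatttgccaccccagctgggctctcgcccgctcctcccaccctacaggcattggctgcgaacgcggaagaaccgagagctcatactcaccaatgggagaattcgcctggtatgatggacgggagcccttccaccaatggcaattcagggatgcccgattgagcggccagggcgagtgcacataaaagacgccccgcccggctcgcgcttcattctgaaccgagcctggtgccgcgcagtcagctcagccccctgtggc
Id3: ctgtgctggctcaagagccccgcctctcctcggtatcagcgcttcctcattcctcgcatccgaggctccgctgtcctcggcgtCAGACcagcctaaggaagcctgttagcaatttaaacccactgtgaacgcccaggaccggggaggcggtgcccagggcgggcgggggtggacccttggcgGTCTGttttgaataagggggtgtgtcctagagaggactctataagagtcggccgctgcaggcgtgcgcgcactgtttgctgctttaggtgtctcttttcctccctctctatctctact
Id4: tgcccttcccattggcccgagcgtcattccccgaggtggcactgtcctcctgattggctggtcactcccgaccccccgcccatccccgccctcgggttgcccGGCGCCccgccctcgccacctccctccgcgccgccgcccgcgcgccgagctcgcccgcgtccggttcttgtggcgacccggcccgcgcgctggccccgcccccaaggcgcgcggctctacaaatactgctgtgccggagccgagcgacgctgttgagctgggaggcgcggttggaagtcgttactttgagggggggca
The *Id3* window held GTCTG at positions -167 (as CAGAC) and -68 from the start site, a motif present in 49.6% of the 32851 promoters of the table. The *Id2* and *Id4* windows each held GGCGCC, at -231 and -148, a motif present in 11.9% of promoters. An E-box, CANNTG on either strand, was found in the *Id2* window alone, as CAGCTG at -196, against 72.3% of all promoters, and TATAAA, found in 13.6%, was in none of the 3. GC content was 63.3% for *Id2*, 60% for *Id3* and 73.3% for *Id4*, with a median of 52.7% over the table. These matches describe letters in a window and were not tested for binding.

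Levels are given as the deposited normalized value, which is the count divided by a size factor from spike-in RNA and by the length of the gene in kb, so that the 4 genes can be ordered. A gene with 0 reads, or too few to reach 1 after scaling, sits at 1 divided by its length, 0.861 for *Id1*, 0.785 for *Id2*, 0.557 for *Id3* and 0.671 for *Id4*. Size factors were centred within batches, so that a level set across runs may also hold a difference in scale between them.

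*Id3* was the most abundant of the 4 genes. In autopod cells its normalized value ranged from 0.557 to 203246 with a median of 12168, and in zeugopod cells from 0.557 to 31565 with a median of 2707. At least 5 reads, the criterion for a gene being on, were found in 74 of 76 autopod cells (97.4%, exact Clopper-Pearson 95% interval 90.8 to 99.7%) and in 90.2% of zeugopod cells (83.6 to 94.9%), all but 12. Only 7 retained cells, all of the zeugopod, had 0 reads of *Id3*. Intervals cover counting error of cells and not differences between embryos.

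*Id1*, the first described member of the family, came second. Its values in the autopod ran from 0.861 to 111600 with a median of 8715, and in the zeugopod from 0.861 to 33803 with a median of 1237. It was on in 73 autopod cells (96.1%, 88.9 to 99.2%) and in 93 zeugopod cells (75.6%, 67 to 82.9%), and 22 zeugopod cells but 2 autopod cells had 0 reads of it.

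*Id2*, a member known from many tissues including limb mesenchyme, was next, with autopod values of 0.785 to 35560.4 (median 4369) and zeugopod values of 0.785 to 11946 (median 422). It was on in 73 autopod cells (96.1%, 88.9 to 99.2%) and 87 zeugopod cells (70.7%, 61.9 to 78.6%), and 32 zeugopod cells against 1 autopod cell had 0 reads. *Id4* was at 0 reads in most cells, 50 in the autopod and 96 in the zeugopod, so that both medians stood at the floor of 0.671. Its highest values were 1418 and 568, and it was on in 19 cells of each tissue, 25% (15.8 to 36.3%) of autopod and 15.4% (9.56 to 23.1%) of zeugopod cells.

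The order *Id3*, *Id1*, *Id2*, *Id4* was the same in both tissues, by the median, by the mean of log2(value + 1) and by CPM per kb. Neighbours in this order overlapped widely from cell to cell. In the autopod quartiles were 3491 and 30412 for *Id3*, 3544 and 18017 for *Id1*, and 2281 and 7512 for *Id2*, whereas for *Id4* the upper quartile was 4.19. In the zeugopod the quartiles were 843 and 6153 for *Id3*, 9.04 and 3216 for *Id1*, and 0.785 and 1356 for *Id2*. Within single cells *Id3* had the highest per-kb value of the 4 in 44 autopod cells, *Id1* in 24 and *Id2* in 8. Among zeugopod cells with any of the genes on, the numbers were 79, 27 and 10, and *Id4* led in no cell of either tissue. Together the 4 genes took a median of 1.21% of the reads of an autopod cell (at most 5.80%) and 0.273% of those of a zeugopod cell (at most 1.64%).

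Runs of the same tissue differed less than the tissues for *Id1* to *Id3*. The autopod medians were 9151 in NXT0072 and 4494 in NXT0143 for *Id1*, 4750 and 3173 for *Id2*, and 10075 and 14251 for *Id3*. Zeugopod medians in NXT0142 and NXT0143 were 1352 and 1222 for *Id1*, 159 and 583 for *Id2*, and 2704 and 2942 for *Id3*. Every autopod run thus lay above every zeugopod run in the median of each of these 3 genes, although the ranges of single cells overlapped in all of them. All 17 autopod cells of NXT0143 had *Id1*, *Id2* and *Id3* on, which for 0 cells off allows a share of up to 17.6%. A single cell among these 17 held 36.6% of their summed *Id2* value.

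**Figure D1:**
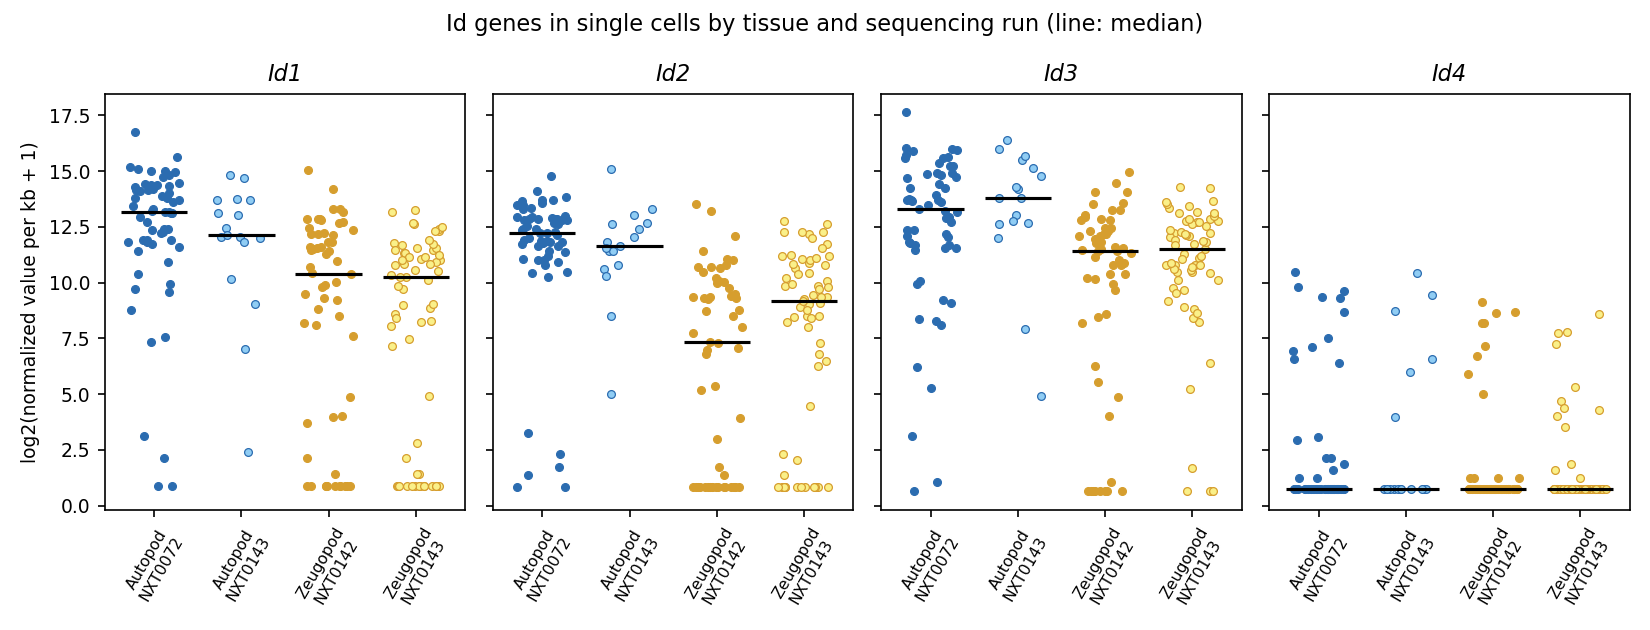
Each point is 1 cell, with log2(normalized value per kb + 1) on the vertical axis and the 4 combinations of tissue and run on the horizontal axis, 1 panel per gene, and black lines for medians. *Id1*, *Id2* and *Id3* form a high cloud in autopod cells, a lower cloud plus a row of cells at the floor in zeugopod cells, and *Id4* is at the floor in most cells of both.

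The question of whether the tissues differ was put as mean log2(value + 1) in the autopod minus mean log2(value + 1) in the zeugopod. *Id2* differed most, with means of 11.31 and 6.88 and a difference of 4.42. *Id1* followed with means of 12.05 and 8.23 and a difference of 3.83, and *Id3* with means of 12.59 and 10.20 and a difference of 2.40. *Id4* had means of 2.51 and 1.68 and a difference of 0.83. The spread over cells was wide, with standard deviations of 3.33 and 4.58 for *Id1*, 3.15 and 4.33 for *Id2*, 3.43 and 3.80 for *Id3* and 3.14 and 2.23 for *Id4* in autopod and zeugopod. With a difference of at least 2 taken as a call, 3 of the 4 members were higher in the autopod, where 0.796% of the genes tested were, and none was lower, where 2.69% of the genes were. To be tested, a gene had to be on in 25% or more of autopod or of zeugopod cells, and the median difference of tested genes was -0.12. *Id4* met this limit in the autopod alone (25% against 15.4% of cells). With a zeugopod mean of 1.68, near its floor, it could not have been called lower. That no member was lower is thus informative for *Id1* to *Id3* only. Only 2 tested genes had a larger difference than *Id2*, whereas *Id3* ranked 22 and *Id4* 434. *Id1* to *Id3* were among the genes that the study itself marked in its comparison of the same cells, so that their call is not independent evidence of its direction.

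The runs allow the tissues to be set against each other in separate ways. Within NXT0143, which held both tissues, the differences were 3.69 for *Id1*, 3.87 for *Id2*, 2.54 for *Id3* and 1.58 for *Id4*, beside a share of 3.59% of tested genes higher by at least 2. Autopod cells of NXT0072 against zeugopod cells of NXT0142 gave 3.64, 5.15, 2.80 and 0.51 in the same order, beside a share of 0.96%. Each of these runs held 1 tissue, so that tissue and run cannot be told apart in that comparison. Between runs of the same tissue, *Id2* and *Id3* were lower in zeugopod cells of NXT0142 than of NXT0143, by differences of -1.44 and -1.12. These were among the lowest values of that comparison, at ranks 4885 and 4866 of 4898 genes whose median was 0.36, and *Id1* gave 0.57 and *Id4* 0.27. In the autopod, NXT0072 minus NXT0143 gave 0.52 for *Id1*, -0.16 for *Id2*, -0.87 for *Id3* and -0.80 for *Id4*.

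A part of the difference was the number of cells in which a gene was on. Among cells with at least 5 reads of the gene, the differences fell to 1.95 for *Id1* (73 and 93 cells), 2.37 for *Id2* (73 and 87 cells) and 1.69 for *Id3* (74 autopod cells and all but 12 zeugopod cells). For *Id4* the difference among the 19 cells of each tissue was 0.85. On the CPM scale, which does not use spike-ins, the differences over all cells were 3.71, 4.28, 2.33 and 0.64 for *Id1* to *Id4*. Thinning of all cells to 500000 reads, which left out 4 shallower cells of each tissue, left *Id1* on in 94.4% of autopod and 73.9% of zeugopod cells, *Id2* in 93.1% and 68.1%, and *Id3* in 97.2% and 89.9%. Reads per cell were then equal, while genes detected were not matched.

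Shares of tested genes higher by at least 2 were 0.755% with CPM, 0.776% after thinning, 1.43% and 0.163% with pseudocounts of 0.1 and 10, 1.08% in cells under no marker rule and 1.9% in cells with 3000 to 5000 genes detected. Shares lower by at least 2 were 4.19%, 4.57%, 4.51%, 0.653%, 5.43% and 1.61% in the same order, 1.04% within NXT0143 and 6.94% for NXT0072 against NXT0142. *Id1*, *Id2* and *Id3* were higher by at least 2 in each comparison whose share is given here, and *Id4* in none. Among cells with at least 5 reads, *Id1* and *Id3* stayed under 2.

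**Figure D2:**
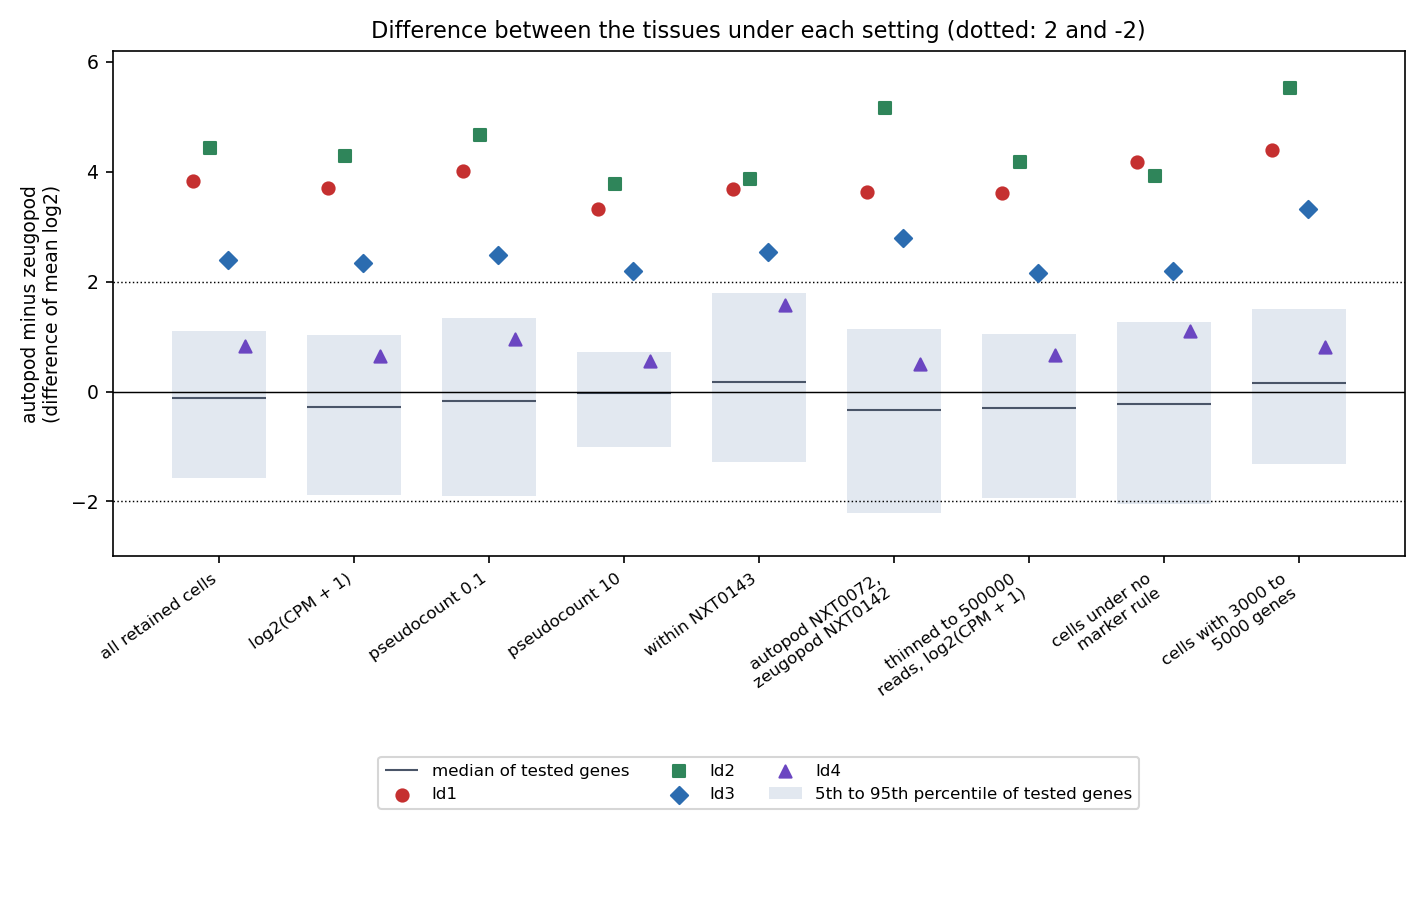
Points give the autopod minus zeugopod difference of mean log2 for the 4 genes under 9 settings, grey bars the 5th to 95th percentile of tested genes and dark lines their median. *Id1*, *Id2* and *Id3* lie above 2 and above the bar under all 9, and *Id4* lies inside the bar under all 9.

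Whether the genes rise and fall in the same cells was described by Spearman coefficients across cells within each tissue. Such coefficients come from cells of 1 pooled sample that differ widely in depth, and they carry no p-value. *Id1* and *Id3* were the closest pair, with 0.579 across autopod cells and 0.596 across zeugopod cells. *Id2* and *Id3* gave 0.533 and 0.490, and *Id1* and *Id2* 0.492 and 0.415. Pairs with *Id4* were lower, between 0.311 and 0.342 in the autopod and between 0.237 and 0.266 in the zeugopod. With normalized values all 6 pairs were positive in each of the 4 combinations of tissue and run, where *Id1* with *Id3* held the narrowest range, 0.588 to 0.631.

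The scale moved these coefficients. Normalized values of *Id1*, *Id2* and *Id3* rose with the number of genes detected in the cell, with coefficients of 0.38, 0.37 and 0.55 in the autopod and 0.34, 0.28 and 0.32 in the zeugopod, whereas with CPM the autopod coefficients were -0.18, -0.29 and 0.10. With CPM, *Id1* and *Id3* gave 0.473 in the autopod and 0.506 in the zeugopod, *Id2* and *Id3* 0.375 and 0.431, and *Id1* and *Id2* 0.414 and 0.367. Given the number of genes detected, the 3 pairs held 0.410 to 0.480 among autopod cells and 0.356 to 0.546 among zeugopod cells. With CPM the pairs with *Id4* gave 0.151 to 0.182 in the autopod and 0.235 to 0.278 in the zeugopod. In the 17 autopod cells of NXT0143 the sign of 3 pairs depended on the scale: *Id1* and *Id2* gave 0.370 with normalized values and -0.488 with CPM, *Id2* and *Id4* 0.270 and -0.0545, and *Id3* and *Id4* 0.206 and -0.132. *Id1* and *Id3* fell there from 0.588 to 0.199. Among zeugopod cells with at least 5 reads of both, *Id1* and *Id2* gave 0.101 and *Id1* and *Id3* 0.481. The first of these was well under its value over all zeugopod cells, which include those with a gene off.

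**Figure D3:**
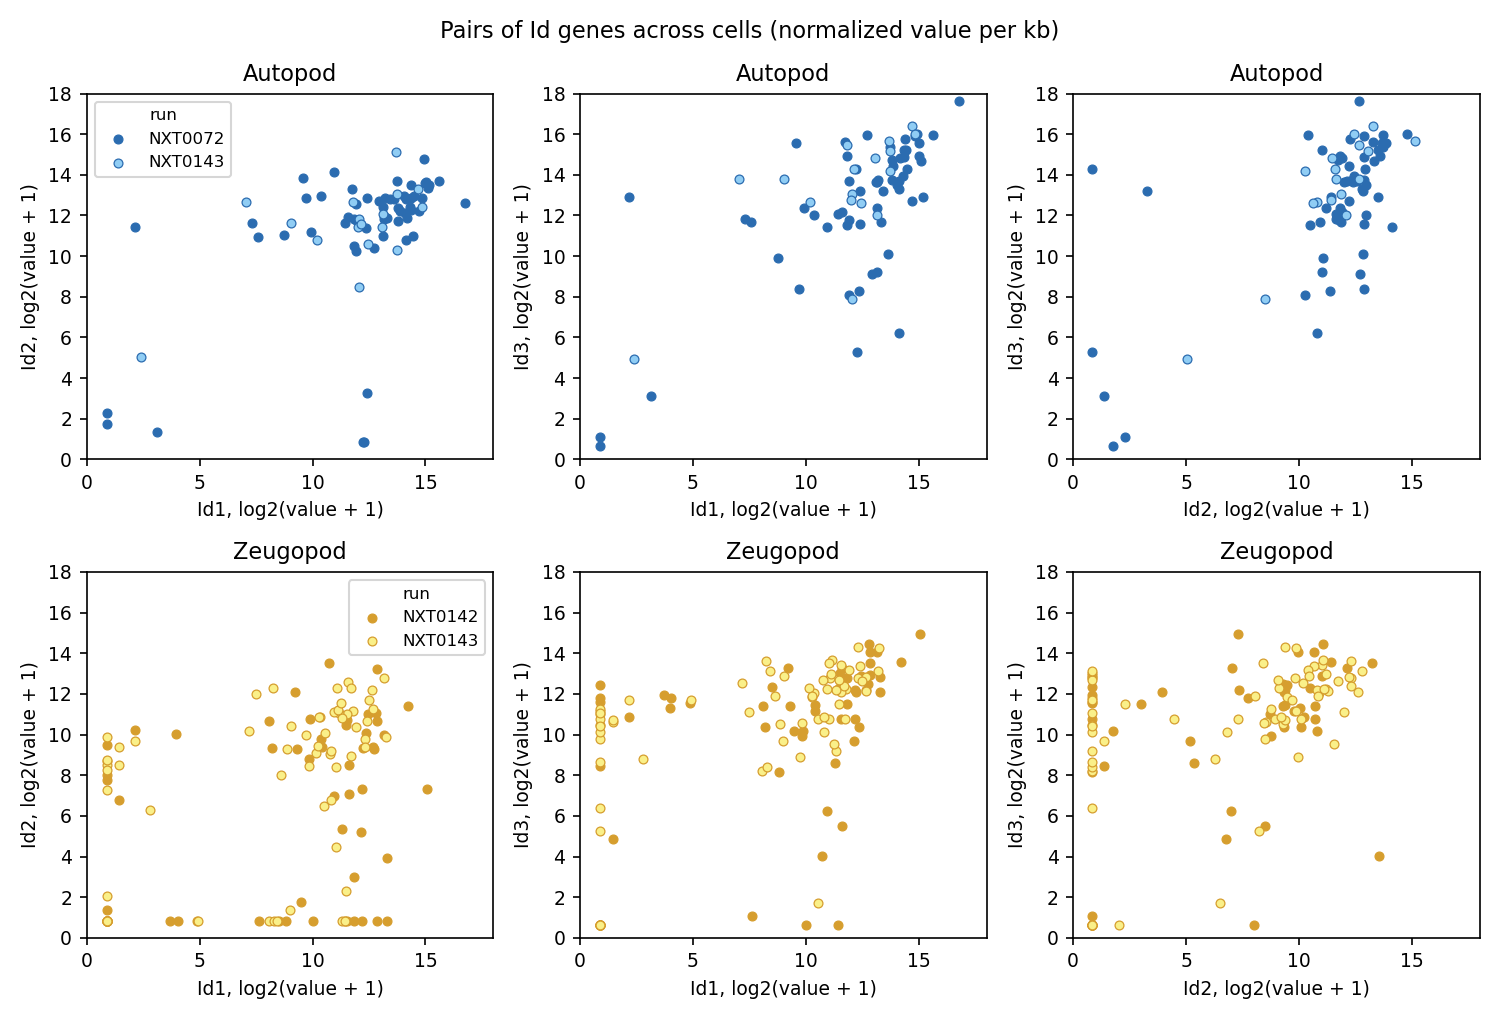
Each point is 1 cell, with log2(normalized value + 1) of 1 gene on each axis, autopod cells above, zeugopod cells below, and shades for runs. Autopod cells gather at high values of both genes, and zeugopod cells also line the axes where 1 gene is at its floor, most often *Id2* or *Id1* beside *Id3*.

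The genes were also counted together in each cell. *Id1*, *Id2* and *Id3* were all on in 70 of 76 autopod cells (92.1%, interval 83.6 to 97%) and in 72 zeugopod cells (58.5%, 49.3 to 67.3%). All 4 genes were on in 19 autopod cells (25%, 15.8 to 36.3%) and 17 zeugopod cells (13.8%, 8.26 to 21.2%), and none of them in 0 and 7 cells, where 0 of 76 allows a share of up to 3.95%. Autopod cells thus fell almost wholly into 2 classes, *Id1* to *Id3* in 51 cells and all 4 in 19. In the zeugopod 9 combinations and a class with none were found, of which *Id1* to *Id3* (55 cells), *Id1* with *Id3* (17 cells), all 4 (17 cells), *Id2* with *Id3* (12 cells) and *Id3* alone (8 cells) were the most frequent. *Id1* alone was seen in 3 zeugopod cells, *Id2* alone in 2 cells of each tissue, and *Id4* alone or *Id1* with *Id2* but without *Id3* in no cell.

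In zeugopod cells with *Id3* on, *Id1* was on in 90 (81.1%, 72.5 to 87.9%) and *Id2* in 85 (76.6%, 67.6 to 84.1%). Of the 12 zeugopod cells with *Id3* off, *Id1* was on in 3 (25%, 5.5 to 57.2%) and *Id2* in 2 (16.7%, 2.1 to 48.4%). Of these 12 cells 9 were of NXT0142, and they had a median of 3497 genes detected against 4010 in the others, and the part of detection in this result was not tested. Of the 19 zeugopod cells with *Id4* on, *Id3* was on in 19, *Id1* in 18 (94.7%, 74 to 99.9%) and *Id2* in 18. In zeugopod cells without *Id4*, *Id3* was on in 92 (88.5%), *Id1* in 75 (72.1%, 62.5 to 80.5%) and *Id2* in 69 (66.3%). The 19 autopod cells with *Id4* had all 3 of the others on, but so had 51 of the 57 without it.

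**Figure D4:**
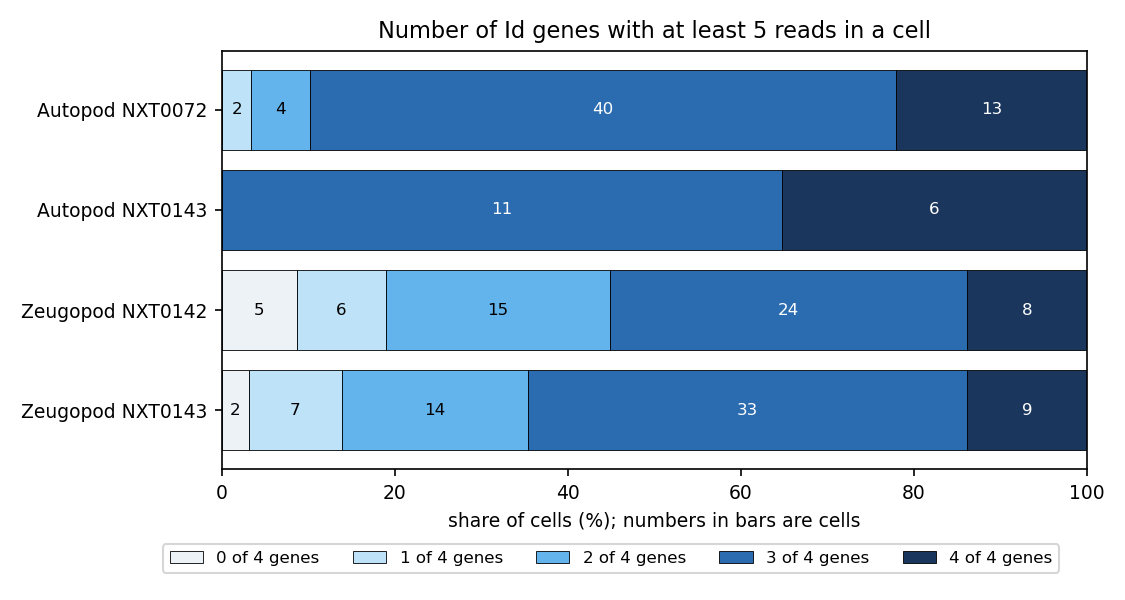
Horizontal bars give the share of cells in percent with 0, 1, 2, 3 or 4 of the genes on (at least 5 reads), 1 bar for each combination of tissue and run, with numbers of cells written in the bars. All 17 autopod cells of NXT0143 have 3 or 4 genes on, and both zeugopod bars begin with cells that have 0, 1 or 2.

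Genes whose pattern across cells was most like that of each member were ranked by the mean of 4 Spearman coefficients, 1 in each combination of tissue and run, among the genes tested. For *Id1* the first was *Id3* (mean coefficient 0.606), followed by *Fos* (0.558), *RP24-503L4.2* (0.551), *Ier2* (0.521) and *Egr1* (0.516). *Fos*, *Ier2* and *Egr1* are immediate early genes, which cells switch on within minutes of a stimulus. For *Id3* the first 5 were *Fos* (0.608), *Id1* (0.606), *Ier2* (0.562), *Id2* (0.553) and *Atp5d* (0.523), a subunit of mitochondrial ATP synthase. For *Id2* they included *Id3* (0.553), *Cyr61* (0.517), a matrix protein gene that is also quickly induced, *Egr1* (0.475) and, at rank 5, *Srsf10* (0.471), a splicing factor. The median over all 4897 other genes was 0.141 for *Id1*, 0.140 for *Id2* and 0.162 for *Id3*, and 5% of them exceeded 0.299, 0.296 and 0.330. Among the members, *Id2* ranked 13 for *Id1*, and *Id4* ranked 89 for *Id1*, 276 for *Id2* and 746 for *Id3*. These ranks moved with the scale, and with CPM they were 80, 27, 195 and 382, the mean coefficient of *Id1* and *Id2* falling from 0.440 to 0.204.

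Coefficients for *Id4*, which was at the floor in most cells, were lower. Its first 5 were *Bnip3* (0.430), a gene induced by hypoxia, *Tns3* (0.371), *Mapk6* (0.366), *Id1* (0.349) and *Cd24a* (0.345). *Bnip3* owed its place to the 17 autopod cells of NXT0143, where the coefficient was 0.946, against 0.185, 0.226 and 0.361 in the other combinations. Without those 17 cells it fell to rank 16. The same cells moved other names as well. Without them, *RP24-503L4.2* fell from rank 3 to 11 for *Id1*, and *Srsf10* from 5 to 25 for *Id2*, while *Id3* stayed first for *Id1* (0.612) and for *Id2* (0.489). *Fos*, *Ier2* and *Egr1* stood at ranks 3, 6 and 2 for *Id1*, and *Fos* and *Ier2* at ranks 2 and 3 for *Id3*. With CPM, *Id3* was again first for *Id1* (0.455) and *Id2* (0.402) and *Fos* first for *Id3* (0.489).

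Lowest coefficients were smaller in size than the highest. For *Id1* the lowest were *Herpud2* (-0.242), *Sox6* (-0.234), a partner of Sox9 in cartilage, and *Foxc1* (-0.195), and these were negative in all 4 combinations. For both *Id2* and *Id3* the lowest was *Hoxa11* (-0.165 and -0.170), a zeugopod *Hox* gene, positive in 1 of the 4, the zeugopod cells of NXT0142. The others for *Id2* were *Cxxc5* (-0.161) and *Ddx56* (-0.145), for *Id3* *Sema3d* (-0.138) and *Ptpdc1* (-0.135), and for *Id4* *Pacs2* (-0.235), *Htt* (-0.221) and *Tsc2* (-0.219). Without the autopod cells of NXT0143 *Cxxc5* stood at 0.00169, *Ddx56* at -0.0403, *Sema3d* at -0.0568, *Ptpdc1* at -0.0198, *Htt* at -0.123 and *Tsc2* at -0.136. *Hoxa11*, at -0.255 with both *Id2* and *Id3* in those cells, stood at -0.134 and -0.142 without them. The values of these genes thus rested in part on those cells.

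**Figure D5:**
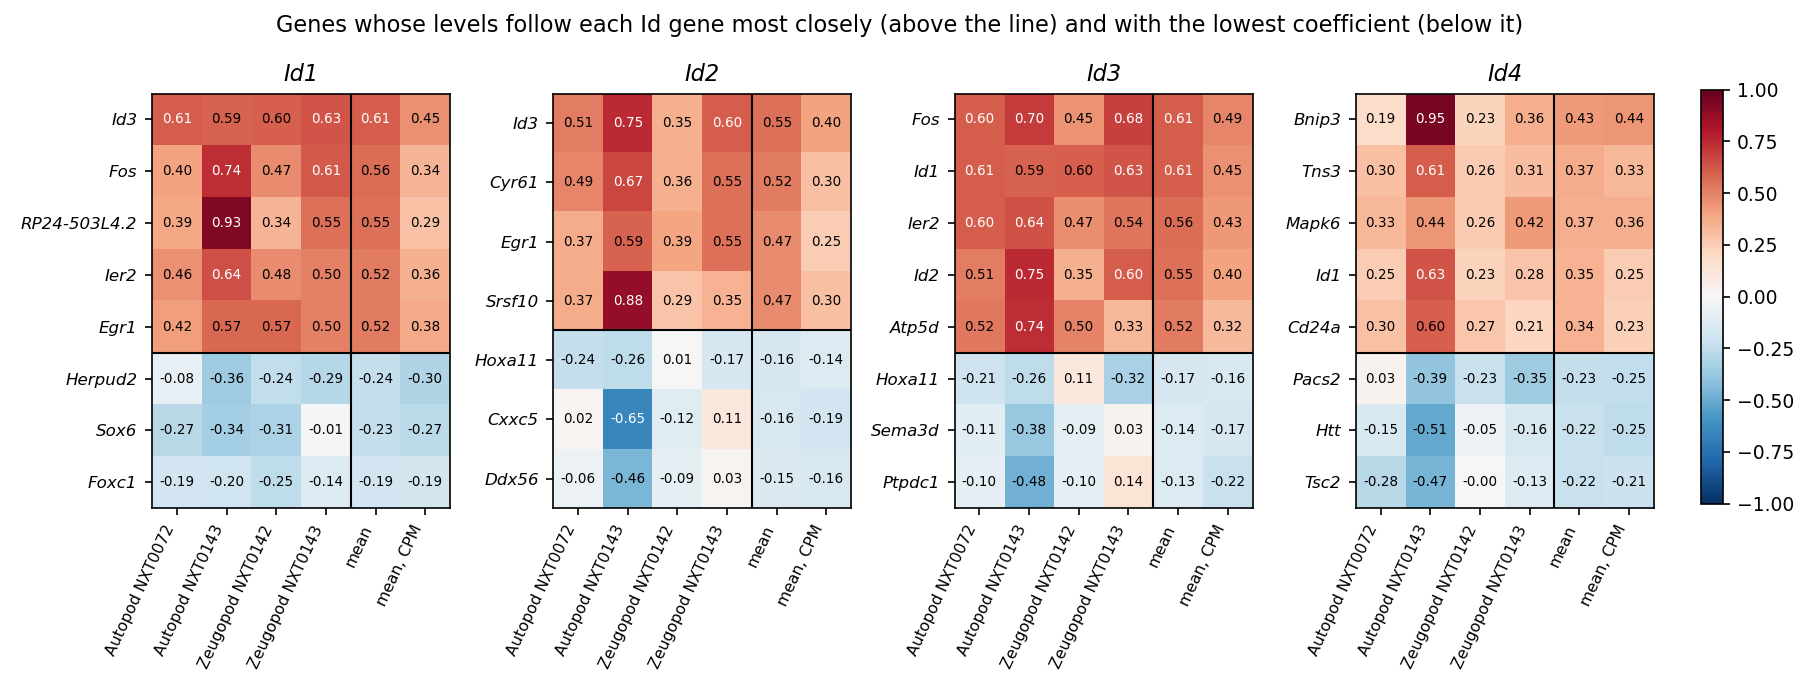
Each row is a gene, those above the line with the highest and those below it with the lowest mean coefficients, and each cell of the map gives its Spearman coefficient with the Id gene named over the panel, in the 4 combinations of tissue and run, as their mean and as the mean with CPM (blue negative, red positive). The column for the 17 autopod cells of NXT0143 holds the most extreme values, such as 0.946 for *Bnip3* with *Id4*, and the mean with CPM is lower than the mean with normalized values for most of the upper rows.

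The list of 15 immediate early and stress genes was described as a whole. Of its 13 tested genes, 11 had a coefficient with *Id1* above the value that 5% of all genes exceed, 7 with *Id2*, 8 with *Id3* and 5 with *Id4*, and the median coefficients were 0.39, 0.31, 0.37 and 0.18. In the tissue comparison 2 of the 13 were called, both higher in the autopod as were 0.796% of all tested genes, *Fos* with a difference of 2.64 and *Dusp1*, a phosphatase gene of the same response, with 2.54. The list's median difference was 1.12, beside -0.12 over all genes. Its summed level differed between runs, with medians of 13815 CPM in autopod cells of NXT0143, 4574 in those of NXT0072, 4038 in zeugopod cells of NXT0143 and 2502 in those of NXT0142. With CPM for both, the coefficient of that sum was 0.52 with *Id1*, 0.49 with *Id2* and 0.64 with *Id3* over zeugopod cells, and 0.15, 0.17 and 0.32 over autopod cells. Within runs it was 0.39 to 0.63 among zeugopod cells and 0.26, 0.31 and 0.33 among autopod cells of NXT0072, whereas autopod cells of NXT0143 gave 0.39, -0.02 and 0.37, so that *Id2* turned sign there. Its part in the levels of the Id genes was not tested.

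Of the other genes known to respond to BMP signals, 5 of 12 were tested and 2 were called, both higher in the autopod, beside 0.796% of all tested genes. *Msx1*, a homeobox gene of the distal limb, had means of 5.45 and 0.50 and a difference of 4.95, and *Msx2*, its relative of the interdigit, means of 3.44 and 0.47 and a difference of 2.97. *Bambi*, a decoy receptor, gave 1.55, *Smad7*, an inhibitory Smad, 0.63 (1.93 within NXT0143 and 0.08 between the other runs), and *Dlx5* 1.87, none of which reached the call. The median of the 5 was 1.87. *Msx1*, *Msx2*, *Bambi* and *Dlx5* reached the share of cells needed for testing in the autopod alone. They were on in 60.5%, 46.1%, 42.1% and 34.2% of autopod cells, against 1.63%, 1.63%, 16.3% and 4.88% of zeugopod cells. With zeugopod means near the floor, *Msx1* and *Msx2* could not have been called lower. The filter thus shaped the number of calls and the median of this list, and neither shows a direction for the list. Across cells *Smad7* was the member of this list closest to the Id genes, with mean coefficients of 0.41 with *Id1*, 0.34 with *Id2*, 0.39 with *Id3* and 0.23 with *Id4*, which were 0.24, 0.16, 0.26 and 0.18 with CPM. *Msx1* gave 0.11, 0.13, 0.25 and 0.10, and *Msx2* 0.20, 0.24, 0.32 and 0.09. These means include the zeugopod combinations, where both genes were near the floor and could hardly follow any gene.

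Ligands were found in few cells. Of 10 BMP and GDF ligands 1 was tested, *Gdf11*, with a difference of -0.10 that was 2.36 within NXT0143 and -1.56 between the other runs. *Bmp2* reached 5 reads in 16 autopod and 16 zeugopod cells, *Bmp4* in 9 and 26, *Bmp7* in 17 and 23, and *Gdf5*, the joint ligand, in 14 and 18. Among 11 BMP antagonists 3 were tested and 1 was called, beside 2.69% of all tested genes in that direction: *Fstl1*, lower in the autopod with a difference of -2.18, which was 0.24 within NXT0143. *Twsg1* gave 1.67 and *Nbl1* -1.71, and *Nog*, a secreted BMP trap, reached 5 reads in 16 autopod and 7 zeugopod cells. The 3 tested receptors of 7, *Bmpr1a* (0.72), *Bmpr1b* (0.82) and *Bmpr2* (1.04), and the 3 tested Smads of 4, *Smad1* (0.94), *Smad5* (1.10) and *Smad4* (1.20), stayed under the call. Within NXT0143 the values of *Bmpr1a* and *Smad5* were -0.03 and -0.13. *Smad9* reached 5 reads in 2 autopod cells and 1 zeugopod cell.

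The partners of the Id proteins were set beside them. All 3 E protein genes were tested and none was called: *Tcf4* was on in 98.7% of autopod and 95.9% of zeugopod cells with a difference of 0.76, *Tcf3* in 55 and 88 cells with -0.48, and *Tcf12* in 49 and 88 cells with -0.78. Their mean coefficients with *Id1* were 0.31, 0.22 and 0.16, and with CPM 0.09, 0.11 and -0.01. These means hide opposite signs. The summed CPM of the 3 genes gave 0.29 with *Id1* in each autopod run, but -0.27 and 0.01 in zeugopod cells of NXT0142 and NXT0143. In autopod NXT0072 and NXT0143 and then these zeugopod runs, it gave 0.17, -0.04, -0.09 and -0.01 with *Id2*. With *Id3* it gave 0.05, -0.02, -0.32 and 0.01 in the same order. Of 10 tissue-restricted bHLH genes 3 were tested and 1 was called, higher like 0.796% of all tested genes. *Twist1*, a regulator of limb mesenchyme, was on in 43 autopod and 21 zeugopod cells, with means of 4.11 and 1.68 and a difference of 2.44, which was 1.12 within NXT0143 and 2.49 between the other runs. *Hand2*, a factor of the posterior limb, gave -0.89 and *Scx*, the tendon factor, -1.26. *Twist1* reached the share of cells needed for testing in the autopod alone (56.6% against 17.1%), and *Hand2* and *Scx* in the zeugopod alone. The filter thus favoured the signs seen for these 3 genes. Among 8 HES, HEY and BHLHE repressors, also helix-loop-helix proteins, 3 were tested and 1 was called higher (0.796% of all tested genes were), the Notch target *Hes1*, with means of 5.66 and 2.92 and a difference of 2.73 (2.42 within NXT0143). The mean coefficients of *Twist1* with *Id1*, *Id2* and *Id3* were 0.25, 0.17 and 0.17, and those of *Hes1* 0.14, 0.11 and 0.26.

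Id levels were then read in cells that met marker rules within a tissue. Autopod cells with at least 5 reads of 2 or more of the interdigit genes *Aldh1a2*, *Msx2* and *Bmp7* numbered 17 of 76. In them the median of *Id3* was 26412, against 8439 in the other 59 cells, and the difference of mean log2 was 2.50 (2.33 within NXT0072, 2.66 within NXT0143, and 1.60 with CPM). *Id1* and *Id2* gave 1.46 and 1.65, which with CPM were 0.55 and 0.75, and *Id4* -0.34. The summed CPM of the interdigit genes followed *Id3* CPM only weakly, with a coefficient of 0.13 over autopod cells. It was 0.07 in NXT0072 and 0.44 in the 17 cells of NXT0143. The interdigit cells had more genes detected, a median of 4504 against 3414, and the part of this in the result was not tested.

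Chondrogenic cells, with 3 or more of *Sox9*, *Col2a1*, *Acan*, *Col9a1* and *Matn1*, numbered 35 in the autopod and 38 in the zeugopod. Their *Id1* was lower by a difference of -1.09 in the autopod (-1.29 and -0.38 in its runs) and -0.65 in the zeugopod, where the runs went opposite ways, -1.92 in NXT0142 and 0.51 in NXT0143. *Id2* and *Id3* likewise turned between the zeugopod runs, from -1.58 to 1.81 and from -0.89 to 0.93, so that no direction can be given for chondrogenic zeugopod cells. With CPM for both, the sum of the 5 chondrogenic genes gave coefficients of -0.09 and 0.04 with *Id1* in autopod cells of NXT0072 and NXT0143. In the same order it gave -0.06 and -0.60 with *Id2*, and 0.03 and -0.69 with *Id3*. This measure thus did not share the lower *Id1* of both autopod runs, and for *Id2* and *Id3* it differed between the runs. *Sox9* itself had a coefficient of 0.12 with *Id1*, 0.01 with *Id2* and 0.18 with *Id3*.

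Zeugopod cells with 3 or more of the cell cycle genes *Mki67*, *Top2a*, *Ccnb1* and *Cdk1* numbered 23 and had higher values of *Id1* (difference 1.87), *Id2* (2.43) and *Id3* (1.80). Both runs had these directions, with 1.62 and 2.06 for *Id1*, 3.27 and 1.96 for *Id2* and 2.90 and 0.82 for *Id3* in NXT0142 and NXT0143, and with CPM the pooled values were 1.28, 1.87 and 1.20, those of NXT0142 1.12, 2.83 and 2.40, and those of NXT0143 also positive, 1.38 for *Id2* and 0.28 for *Id3*. The summed CPM of the cell cycle genes did not share these directions in NXT0143, where its coefficients with *Id1*, *Id2* and *Id3* were -0.13, -0.08 and -0.16, against 0.15, 0.35 and 0.08 in NXT0142. These cells had a median of 5053 genes detected against 3901. In the 18 such autopod cells the differences were 0.98, 1.17 and 0.32, which with CPM were -0.06, 0.16 and -0.72. For *Id4* the difference was -1.33 among autopod cells and -0.64 among zeugopod cells, with 2 of 18 and 2 of 23 such cells on, and its sign turned among the 17 autopod cells of NXT0143 (1.81), of which 2 met the rule.

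The 17 zeugopod cells with 2 or more of the tendon genes *Scx*, *Tnmd* and *Tnc* had *Id2* at a difference of -1.46 from the others, which was -1.04 in NXT0142 and -1.44 in NXT0143, whereas *Id1* turned sign between the runs (1.72 and -1.03). Among autopod cells, the 65 with *Hoxd13* had higher *Id1* (3.66) and *Id3* (2.78) than the 11 without. *Id2* gave 1.57, with 3.52 in NXT0072 and -0.19 in NXT0143. The values of *Id1* and *Id3* were 6.08 and 5.60 in NXT0072, where 5 cells lacked *Hoxd13*, and 1.23 and 0.93 in NXT0143, where 6 did, and cells without *Hoxd13* had fewer genes detected (median 2735 against 3805). *Msx1* split autopod cells with smaller differences, 0.94 for *Id1*, -0.07 for *Id2* and 0.67 for *Id3*, and *Id1* went from 1.20 in NXT0072 to -0.08 in NXT0143. In the zeugopod the 73 cells with *Shox2* differed from the 50 without by 1.24 in *Id3*, with 1.34 and 0.92 in NXT0142 and NXT0143, while the runs went opposite ways for *Id1* (-0.24 and 0.19) and *Id2* (0.76 and -1.41). The 67 cells with *Meox2*, a muscle and limb homeobox gene, gave -0.35 for *Id1*, -0.83 for *Id2* and -0.16 for *Id3*, but the runs went opposite ways for each (0.51 and -1.10, 0.07 and -1.69, -1.31 and 0.83 in NXT0142 and NXT0143).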

How the data were processed

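Reads of 75 bases were mapped uniquely by the authors to mm10 (GRCm38) and to spike-in sequences with Bowtie2, whose version is not given in the sources used here. The authors deposited raw counts of reads per gene in 225 cells, and a normalized signal in 199 cells, made by them with scran from spike-in size factors centred by batch and divided by gene length. Checked against the counts, 99.5% of signal values were the count divided by 1 factor per cell, rounded down, plus 1, over the length (within 1 count or 1%). Rows of spike-in counts did not follow the cell names and were not used. Deposited signal was compared as mean log2(value + 1) between groups of cells, and CPM was computed from the counts. On meant at least 5 reads. Cells were thinned without replacement to 500000 reads with seed 42. Shares have exact Clopper-Pearson 95% intervals, and a count of 0 the share of 3 cells. Depth per cell is given with the cells. Named were the 4 genes, and for each the 5 genes with the highest and 3 with the lowest mean coefficient. Listed genes were named where needed to describe a list, among them some but not all of those with a difference of at least 2. Of the genes with the highest coefficients for *Id2*, 1 is not reported here. The members and gene lists were chosen with earlier results of these data known. Alternatives comprised CPM, pseudocounts of 0.1 and 10, each run, thinning and other criteria, and 4 were added after seeing the data: cells under no marker rule, cells with 3000 to 5000 genes detected, cells with 5 reads of both genes, and coefficients without the autopod cells of NXT0143. Marker rules for cells were set after seeing the data. Python 3.11.15, numpy 2.4.6, scipy 1.17.1 and pandas 2.3.3 were used, and the code was tested on simulated data.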

Additional observations from a re-analysis of the deposited data

Results flagged for a closer look

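The 26 captured cells that the authors left out of the normalized table also held reads of the Id genes. At least 5 reads were found for *Id1* in 3 of the 26 cells (11.5%, interval 2.45 to 30.2%), for *Id2* in 2 (7.69%, 0.946 to 25.1%) and for *Id3* in 5 (19.2%, 6.55 to 39.4%), with at most 445, 512 and 13441 reads in a cell. No reads of *Id4* were found, and 0 of 26 allows a share of up to 11.5%. Total reads on genes in these cells ran from 17 to 2926028 with a median of 25640, which is under the lowest retained cell. These cells enter no comparison of the report, and what singled them out is that a signal was seen in data outside it.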

How the results depend on the processing

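The autopod minus zeugopod difference kept its direction in all 36 alternatives over the 4 genes. For *Id4* (0.83) the alternatives ran from 0.51 for NXT0072 against NXT0142 to 1.58 within NXT0143. The SD of these 2 run comparisons, 0.76, was nearly as large as the *Id4* difference itself, so that it cannot show whether that difference was stable. For *Id1* (3.83) the alternatives gave 3.71 with CPM, 4.01 and 3.32 with pseudocounts of 0.1 and 10, 3.69 within NXT0143, 3.64 for NXT0072 against NXT0142, 3.61 after thinning, 1.95 among cells with 5 reads, 4.18 in cells under no marker rule and 4.39 in cells with 3000 to 5000 genes. *Id2* (4.42) moved to 2.37 among cells with 5 reads and to 5.53 in cells with 3000 to 5000 genes. *Id3* (2.40) gave 2.19 with a pseudocount of 10, 2.80 for NXT0072 against NXT0142, 2.15 after thinning, 1.69 among cells with 5 reads, 2.19 in cells under no marker rule and 3.32 in cells with 3000 to 5000 genes. The fall under 2 of *Id1* and *Id3* follows from leaving out the cells in which a gene was off, and the cause of the other moves was not tested. The median coefficient of the 6 pairs, 0.417 in the autopod, was 0.279 with CPM, 0.348 given genes detected, 0.311 after thinning and 0.479 in NXT0143 alone (there 0.0720 with CPM and 0.0256 after thinning), and in the zeugopod, 0.341, it was 0.432 in NXT0143 alone. In zeugopod cells with 5 reads of both genes the coefficients of *Id1* and *Id3* with *Id4* turned to -0.104 and -0.0368, and the cause was not tested. Shares of cells with all 4 genes on stayed inside their intervals under 3 other criteria in each tissue. No paired analysis was possible because the numbers of the cells only name them and the differences come from no test. Few cells (17) in the autopod of NXT0143 and few reads of *Id4* limit these values.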
